A study of Rattus norvegicus with 9 samples.

Results

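Dhx36 (Entrez gene 310461), a helicase also known as G4R1, was described in prefrontal cortex tissue of 9 male rats of the inbred Lewis strain, through both probe sets of the array whose only annotated symbol is Dhx36, 1385871_at and 1385872_at, of 15923 probe sets in all. It is 1 of 10411 genes that have a probe set of their own on the array. The gene was selected on its log2 levels in these rats, which were higher where the startle value was higher, so that relation is given as a description without a test. The rats weighed 200 to 250 g, received no treatment and formed 1 group. Frontal cortex without the olfactory bulb was taken 12 days after the last behavioural test, and RNA of each rat was hybridised to 1 Affymetrix array. The labels score every rat on sugar feeding, plus maze, startle and locomotion without naming units. Mean startle was 276 ± 142 (SD, n = 9), with a lowest value of 67.7 and a highest of 501. Locomotion values lay between 536 and 1102, plus maze values between 0 and 18.7 and sugar feeding values between 0.8 and 4.7. Levels are log2 expression per probe set as deposited, and a level of 1 probe set cannot be set against that of another.

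Dhx36 belongs to the DEAH family of helicases, which use ATP to remodel RNA. It binds and unwinds G-quadruplexes, the stacked structures that guanine-rich DNA and RNA can form, and it was also identified through its binding to an AU-rich element, a sequence that marks mRNA for decay. In neurons it has been linked to the transport of a precursor microRNA into dendrites. In whole tissue, a change in the RNA per cell and a change in the share of cells that express a gene cannot be told apart.

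Array medians lay between 4.11 and 4.28 log2 units. On the first principal component, with 49.6% of the variance, rats 8 and 9 scored 35.6 and 30.2, away from the -12.1 to -1.62 of the 7 remaining rats. Values are therefore also given without these rats. The component correlated with the mean of both Dhx36 probe sets, each as a z score, at r = -0.672 over 9 rats and -0.272 over the other 7. Its part in the relations below was not tested. Of marker genes with a probe set of their own, 5 of 6 on the excitatory neuron list passed the filter on low values. So did 8 of 8 of inhibitory neurons, 7 of 7 of astrocytes, 1 of 5 of striatum and 2 of 3 of olfactory bulb, where 65.2% of all genes passed. The 2 of olfactory bulb, Calb2 at 3.25 to 3.40 and Cdhr1 at 2.94 to 3.44, lay near the lowest mean kept, 3.22. Tbr1, a transcription factor of cortical excitatory neurons, was below the filter.

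The promoter of Dhx36 is shown because the gene's RNA level is what varied between the rats, and its letters let a reader look for elements shared with the genes that varied along with it. The 249 bases before the gene's start, from RefSeq on build GRCr8 at chr2:149044193-149044441 on the minus strand, read as follows, with matches to the cyclic AMP response element TGACGTCA and to the ETS factor core CCGGAA in capitals.
Dhx36 promoter: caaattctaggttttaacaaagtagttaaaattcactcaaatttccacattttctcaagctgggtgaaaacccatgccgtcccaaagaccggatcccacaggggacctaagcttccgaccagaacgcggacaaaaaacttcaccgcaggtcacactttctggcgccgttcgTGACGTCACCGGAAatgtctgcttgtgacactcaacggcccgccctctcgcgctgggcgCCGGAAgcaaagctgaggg
The response element began 78 bases before the start and adjoined an ETS core that began 70 bases before it, and a second ETS core began 19 bases before it. On either strand, TGACGTCA was present in 1.58% of 33469 rat promoter windows of this length and CCGGAA in 12.5%. A GC box, GGGCGG, had 1 match on the opposite strand, 39 bases before the start, and was present in 30.4% of windows. The CCAAT box, present in 33.9%, and a pattern of 4 runs of at least 3 guanines separated by 1 to 7 bases, present in 14.8%, had no match in this window. These matches are letters in a window, and binding was not measured.

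Both Dhx36 probe sets were at their lowest in rat 8, which had the lowest startle value, and at their highest in rats 1 and 3, which had the highest. In order of rising startle, 1385871_at read 8.33 in rat 8, 8.74 in rat 7, 9.62 in rat 5, 9.28 in rat 9, 9.72 in rat 4, 9.65 in rat 2, 10.08 in rat 6, 10.20 in rat 1 and 10.38 in rat 3. The lowest and highest rat lay 4.14-fold apart, and the mean was 9.55 ± 0.68 (SD, n = 9). In the same order, 1385872_at read 7.13, 7.53, 7.43, 7.58, 7.62, 7.64, 7.92, 8.03 and 8.02, a 1.88-fold span around a mean of 7.66 ± 0.29 (SD, n = 9). The 3 rats with the highest startle values held the 3 highest levels of either probe set. Because the gene was chosen for its relation with startle, this order is part of that choice and supports nothing.

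**Figure D1:**
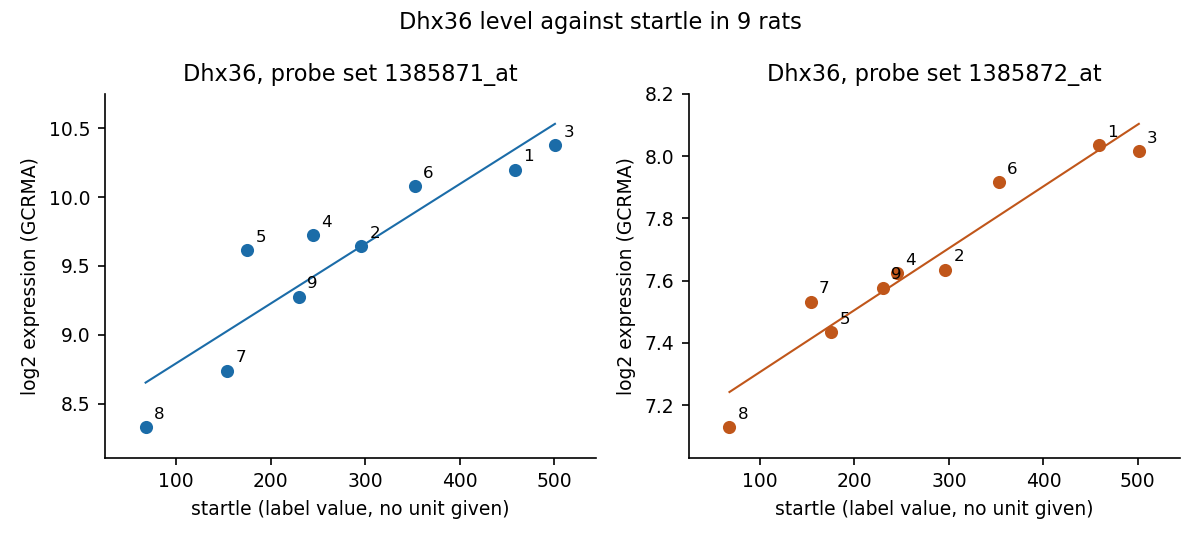
Each point is 1 rat, numbered, with its startle value from the labels (no unit given) on the horizontal axis and the log2 level of Dhx36 on the vertical axis, for 1385871_at on the left and 1385872_at on the right. Lines are least-squares fits, and rat 8 lies at the lower left of both panels with 8.33 and 7.13.

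The slope fitted by limma was 0.62 ± 0.095 log2 units per SD of startle for 1385871_at (SE, n = 9) and 0.28 ± 0.036 for 1385872_at (SE, n = 9). One SD of startle thus went with a 1.53-fold and a 1.22-fold higher level. Pearson r with startle was 0.912 and 0.962, and Spearman rho was 0.967 for either probe set. Of the 36 pairs of rats, 34 stood in the same order by startle and by level for either probe set. Rats 1 and 3 had the startle values most distant from its median. With both left out r was 0.897 and 0.947, and without rats 8 and 9 it was 0.875 and 0.956. With the other 3 measures as covariates the slopes were 0.61 ± 0.11 and 0.28 ± 0.047. Rat 8 carried part of the size: without it the slopes were 0.52 and 0.25, the lowest of the 9 fits that left out 1 rat. In limma, 0 of 9520 probe sets had an adjusted p under 0.05 for startle. Since the gene was chosen for its values against startle, they describe it and support nothing further.

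The variation of Dhx36 between rats was wide for this table at 1 probe set and less so at the other. The SD of 1385871_at was exceeded by 206 of 9520 probe sets tested, or 2.16%, and that of 1385872_at by 2073, or 21.8%, where the median SD was 0.19 log2 units. Without rats 8 and 9 the spans were 3.11-fold and 1.52-fold. Because there was 1 array per rat, the spread of a rat's own value is unknown, and rats next to each other in level, such as rats 1 and 3 or rats 2 and 4, cannot be ordered.

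The 2 probe sets were designed from the same expressed sequence and both passed the filter on low values. They ordered the rats much alike, with 32 of 36 pairs in the same order, r = 0.897 and rho = 0.917. Both were chosen for their relation with startle, so their agreement is a description and supports nothing. The probe sets differed in size, with startle slopes in a ratio of 2.18. Their agreement also lay mostly along startle: after a straight line on startle was removed from both, r between the remainders was 0.177. Rats 5 and 7, with startle values of 175.4 and 153.7, show the difference. The level of 1385871_at was 0.88 log2 units higher in rat 5 than in rat 7, or 1.84-fold, whereas that of 1385872_at was -0.099 log2 units by the same subtraction. Without rats 8 and 9 the agreement was r = 0.796.

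The level of Dhx36 was not related to locomotion, plus maze or sugar feeding at the threshold, and these measures played no part in choosing it. Neither probe set passed an adjusted p of 0.05 in limma for any of the 3, where 0% of all probe sets passed. For startle, too, 0 of 9520 probe sets passed, so this threshold does not set startle apart from the other 3 measures. At an unadjusted p under 0.05 the share of all probe sets was 1.96% (locomotion), 2.99% (plus maze) and 1.4% (sugar feeding), and neither Dhx36 probe set was among them over 9 rats. The intervals were wide, so slopes of moderate size in either direction remain compatible with the data.

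For locomotion, the slope of 1385871_at was -0.11 ± 0.22 log2 units per SD (SE, n = 9), with a 95% interval of -0.62 to 0.39. In limma the adjusted p was 1. By exact permutation, p was 0.666 for r = -0.169 and 0.521 for rho = -0.25, and the first was 0.708 after adjustment over the 6 tests of 2 probe sets and 3 measures. The slope of 1385872_at was -0.043 ± 0.10, with an interval of -0.27 to 0.18. Exact permutation gave p = 0.708 for r = -0.146 and p = 0.744 for rho = -0.133. Rat 1 had the highest locomotion value, 1102, and a high Dhx36 level, while rat 3 had the lowest, 536, and a high level as well. Without these rats r was -0.489 and -0.697. Without rat 1 alone the slopes were -0.59 and -0.30, and both probe sets then had an unadjusted limma p under 0.05, as did 9.84% of all probe sets, with limma adjusted p of 0.50 and 0.496. Without rats 8 and 9 it was 0.175 and 0.191, so the sign depended on which rats were included.

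For the plus maze, the slope of 1385871_at was 0.16 ± 0.22 (SE, n = 9), with an interval of -0.34 to 0.65. Exact permutation gave p = 0.570 for r = 0.230 and p = 0.696 for rho = 0.151. That of 1385872_at was 0.067 ± 0.098, with an interval of -0.15 to 0.29. The exact permutation p was 0.550 for its r of 0.228 and 0.524 for its rho of 0.244. The highest plus maze value, 18.7, belonged to rats 2 and 6, which differed in Dhx36, with 9.65 and 10.08 for 1385871_at. Without them r was -0.0254 and 0.0351. Rats 3 and 9 shared the lowest value, 0, and read 10.38 and 9.28.

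For sugar feeding, the slope of 1385871_at was -0.13 ± 0.22 (SE, n = 9), with an interval of -0.63 to 0.37. Exact permutation gave p = 0.640 for r = -0.186 and p = 0.982 for rho = -0.0167. For 1385872_at the slope was -0.083 ± 0.097, with an interval of -0.30 to 0.14. The exact permutation p was 0.465 for its r of -0.281 and 0.948 for its rho of -0.0333. Rats 4 and 8 had the top values of sugar feeding, and without them r was 0.175 and 0.230. Adjusted over the 6 tests, the exact permutation p of r was 0.708 and that of rho 0.982 for every measure and probe set.

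**Figure D2:**
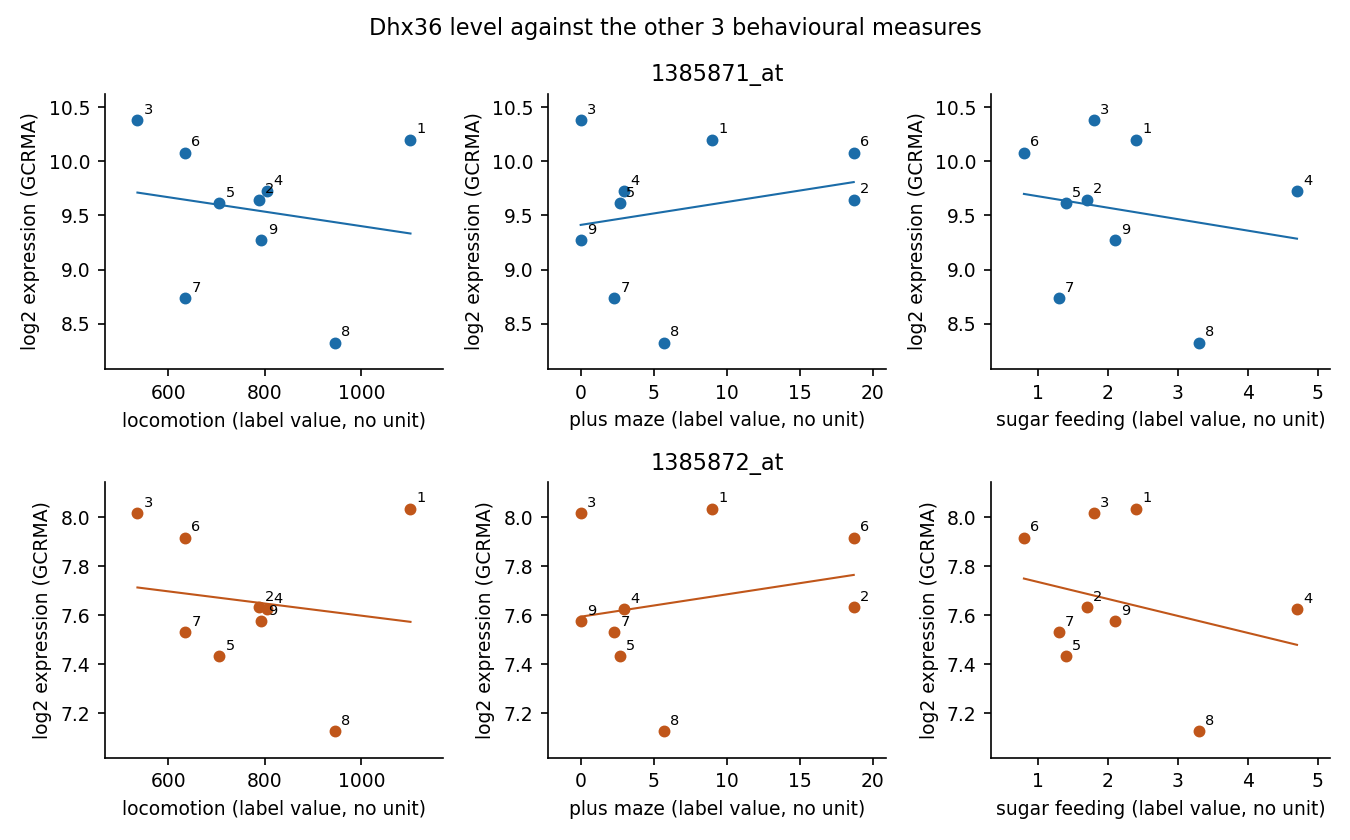
Each point is 1 rat, numbered, with its label value of locomotion, plus maze or sugar feeding (no units given) on the horizontal axis and the log2 level of 1385871_at (upper row) or 1385872_at (lower row) on the vertical axis. The fitted lines are shallow against the scatter, with r between -0.281 and 0.230.

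The genes whose levels were most like Dhx36 were ranked by Pearson r over the 9 rats with the mean of both probe sets' z scores, among 6769 genes with a name of their own. The rats, arrays and normalization are shared by every pair of genes, so these r are descriptions without a test, and the median r over all ranked genes was 0.228 rather than 0. There were 14 genes above 0.9 and 9 below -0.9. The highest was Mapk8, the stress-activated kinase JNK1, with r = 0.930. Its level was 8.33 in rat 8, between 8.50 and 8.67 in rats 1, 2, 4, 5, 6, 7 and 9, and 8.72 in rat 3, a 1.31-fold span. Srprb, a subunit of the receptor that docks ribosomes at the endoplasmic reticulum, had r = 0.925 and ran from 7.96 in rat 8 to 8.77 in rat 3. Phlpp1, a phosphatase of the kinase Akt, had r = 0.923 and ran from 7.30 in rat 8 to 7.75 in rat 6.

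The other 7 on the positive side had r of 0.905 to 0.922. They were Myh1, annotated as a skeletal muscle myosin heavy chain, Dnajc24, a J-domain co-chaperone, Ciao3, a factor of iron-sulfur cluster assembly, Evi5, an activator of Rab GTPase hydrolysis, and Ccdc22, a component of an endosomal recycling complex. The last were Suclg1, a subunit of mitochondrial succinyl-CoA ligase, and Eif3d, a translation initiation factor subunit. Dnajc24 had the widest span of the 10, 2.77-fold from 3.81 in rat 8 to 5.28 in rat 3, and Evi5 the narrowest, 1.16-fold. All 10 were at their lowest in rat 8. The 4 other Myh1 probe sets tested had r between -0.308 and 0.412, so the value for Myh1 rests on 1 of its 5 probe sets.

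On the negative side Atf5, a leucine zipper transcription factor, had r = -0.956. It read 6.58 in rat 8 and 5.58 in rat 3, the reverse of Dhx36, with r = -0.975 against startle itself. Ctdnep1, a phosphatase of the nuclear envelope, followed with r = -0.922 and ran from 6.07 in rat 1 to 6.70 in rat 7. Sap30l, a component of a histone deacetylase complex, had r = -0.921, and Hid1, a factor of dense core vesicle formation, also had r = -0.921. Syn1, the vesicle protein synapsin I, had r = -0.920, from 10.59 in rat 1 to 11.29 in rat 8, and its second probe set had r = -0.704. Lsm12 had r = -0.913, although its second probe set had r = -0.0703. The remaining 4 were Grina at -0.911, Adgrb1, an adhesion receptor of synapses, at -0.910, Kctd17 at -0.90 and Mapre3, a protein of growing microtubule ends, at -0.899. Their spans ran from 1.45-fold to 2.00-fold over the 10 genes. Of all 20 genes, 8 repeated a value exactly between arrays, whereas neither Dhx36 probe set did.

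**Figure D3:**
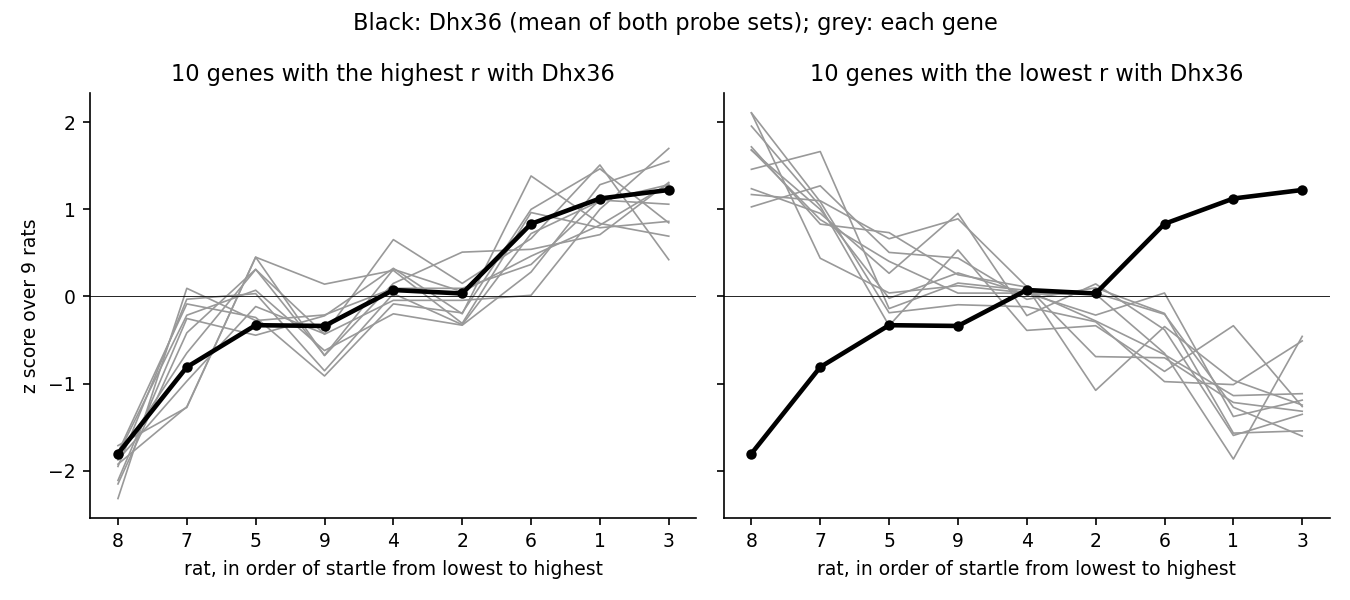
Lines show z scores over the 9 rats, which are ordered along the horizontal axis from the lowest startle value (rat 8) to the highest (rat 3). Black is the mean of both Dhx36 probe sets, from -1.80 in rat 8 to 1.22 in rat 3, and grey lines are the 10 genes with the highest r (left) and the 10 with the lowest (right).

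Likeness to Dhx36 and relation to startle overlapped in part. Among the 10 most positive genes r with startle was 0.791 to 0.905, and 2 of them (20%) were among the 10 genes with the highest r with startle. Among the 10 most negative genes it was -0.975 to -0.813, and 5 (50%) were among the 10 with the lowest. After a straight line on startle was removed from every gene, r with Dhx36 was 0.939 for Phlpp1, 0.799 for Eif3d, 0.773 for Ciao3 and 0.754 for Mapk8. It was 0.343 for Ccdc22 and 0.444 for Dnajc24. On the negative side it was -0.837 for Hid1, -0.714 for Lsm12 and -0.612 for Grina, but -0.246 for Atf5, -0.215 for Syn1, 0.0463 for Adgrb1 and 0.321 for Mapre3. The median over the 10 positive genes was 0.729 and over the 10 negative genes -0.310. The 20 genes were picked for their r with Dhx36 in these rats, so among them a weaker r with startle tends to go with a stronger remaining r. The remainders of the 2 Dhx36 probe sets agreed only at r = 0.177. A gene outside the 20, with r = 0.199 before removal, reached 0.951 after it. These values thus do not show that a gene followed Dhx36 apart from startle.

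Rats 8 and 9 bore on which genes led. Without them the positive genes had r of 0.813 to 0.906 and the negative genes -0.950 to -0.810, and the 4 that stayed among the 10 lowest were Atf5, Syn1, Adgrb1 and Mapre3, while none of the positive genes stayed among the 10 highest. The same 4 genes stayed when rat 8 alone was left out. Quantile normalization applied again kept 10 of the 20, and r of Evi5 was then 0.603. In the promoter windows given for 8 of the positive and 6 of the negative genes, TGACGTCA was found in 0 and 2, and CCGGAA in 2 and 0. Their shares of all windows were 1.58% and 12.5%. The GC box was found in 2 and 3, the CCAAT box in 2 and 3 and the pattern of guanine runs in 1 and 1. These had shares of 30.4%, 33.9% and 14.8%. The genes were picked from these data, so the counts are a description without a test.

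**Figure D4:**
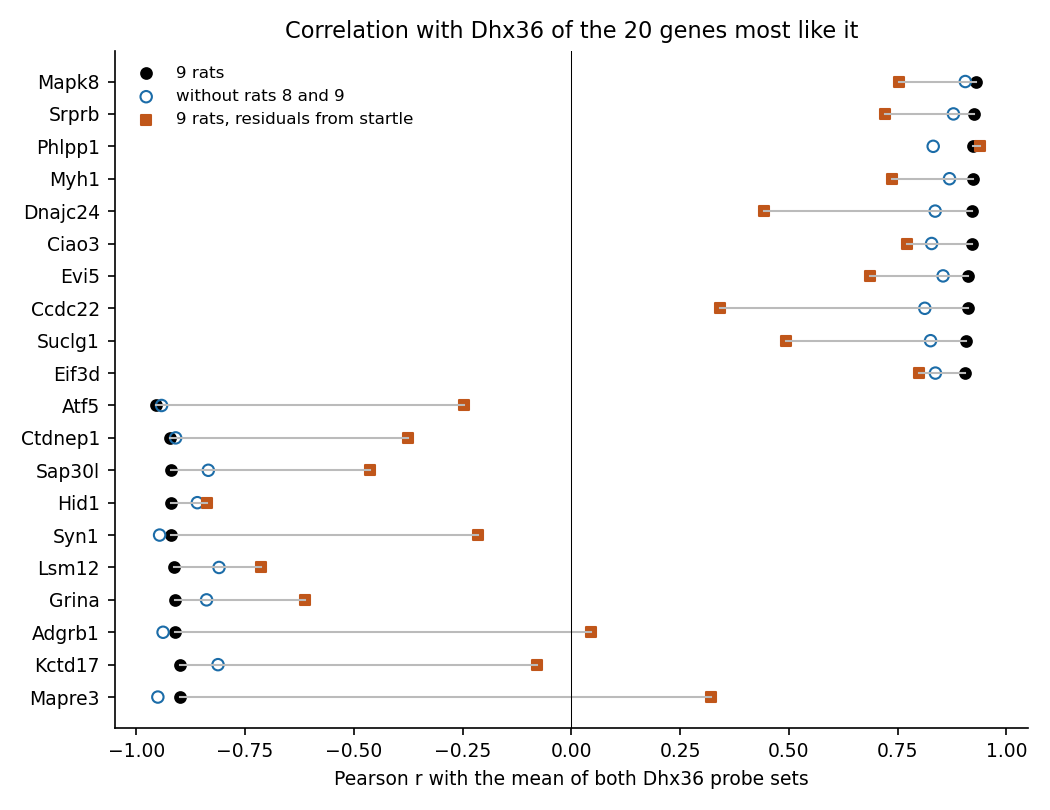
For each of the 20 genes, Pearson r with the mean of both Dhx36 probe sets is shown over 9 rats (black), without rats 8 and 9 (open blue) and over 9 rats after a straight line on startle was removed (orange squares). Adgrb1 and Mapre3 moved from -0.910 and -0.899 to 0.0463 and 0.321 on removal of startle.

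Relatives of Dhx36 in the DEAH family had r values on both sides of 0. Of 18 other helicase genes on the DEAH family list, 9 had a probe set of their own and 8 of these passed the filter on low values. Here and in the lists below, genes that met both conditions are called measured. The median r of the 8 with Dhx36 was 0.0424, beside 0.228 over all 6792 genes tested. Of these 8, 4 had a positive r, where 65.6% of all genes did over 9 rats and 52.9% without rats 8 and 9. For the relation with startle in limma none passed an adjusted p of 0.05, as for all genes. At an unadjusted p under 0.05 there was 1 with a positive slope and 0 with a negative slope, where 7.79% and 4.64% of all genes were called. That gene was Aqr, a helicase of the spliceosome, with 0.13 ± 0.056 log2 units per SD (limma adjusted p = 0.372). Aqr is on the list but belongs to another helicase family, and its r with Dhx36, 0.632, was the highest of the 8. The remaining genes of the list were not called. Dhx30, a helicase of mitochondrial ribosome assembly, had -0.14 ± 0.073, Dhx38, a splicing helicase, -0.029 ± 0.029, and Dhx9, a nuclear RNA and DNA helicase, 0.11 ± 0.11. Dhx9 was also the 1 gene of the 8 pathway lists with an unadjusted limma p under 0.05 for locomotion, with a slope of -0.25. Without rats 8 and 9 the median r of the 8 genes with Dhx36 was -0.386, and 1 of 8 was positive, beside a median of 0.0504 over all genes.

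Among 24 of 35 DEAD-box helicases measured, the median r with Dhx36 was 0.242 and 16 were positive, beside 0.228 and 65.6% over all genes. The median was -0.128 and 11 were positive without rats 8 and 9, beside 0.0504 and 52.9% over all genes. Eif4a1, the helicase of cap-dependent translation initiation, had a startle slope of -0.34 ± 0.11. Ddx21, a helicase of ribosomal RNA processing, had 0.33 ± 0.12. Ddx39b, an mRNA export helicase, had -0.093 and Ddx52 0.082. Both directions were thus called once each among 24 genes. The limma adjusted p of Eif4a1 and Ddx21 was 0.359.

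Of 20 other proteins that unwind or bind G-quadruplexes, 13 were measured, with a median r of 0.165 and 8 positive. Over all genes these were 0.228 and 65.6%. In the 7 rats other than 8 and 9 the median was -0.414 and 4 were positive, beside 0.0504 and 52.9% over all genes. Fmr1, the RNA-binding protein lost in fragile X syndrome, had a startle slope of 0.24 ± 0.078 and r = 0.795 with Dhx36. Hnrnpa1, a splicing regulator, had 0.20 ± 0.073 and r = 0.794. Tardbp, an RNA-binding protein of the nucleus, had -0.095 ± 0.041 and r = -0.517, and Ewsr1 had -0.11. None of the 13 passed after adjustment in limma, where the values were 0.359 for Fmr1 and Hnrnpa1 and 0.371 for Tardbp.

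For AU-rich element binding and mRNA decay, 21 of 34 genes were measured, with a median r of 0.0789, or -0.00051 without rats 8 and 9. Over all genes these medians were 0.228 and 0.0504. For startle, 0 of the 21 were called at an unadjusted limma p under 0.05, where 7.79% of all genes were called with a positive and 4.64% with a negative slope. Exosc9, a subunit of the RNA exosome, had a startle slope of 0.17 and Khsrp, a decay-promoting factor, -0.31, while Tial1 had -0.14 and Elavl4, a neuronal stabilising factor, 0.20. Among 12 of 16 stress granule genes measured the median r was 0.426, above the 0.228 over all genes, but -0.238 without rats 8 and 9. Fxr2, a relative of the fragile X protein, had a startle slope of -0.19 ± 0.046 and Caprin1, a core granule protein, 0.12 ± 0.035. Eif2s1 had 0.071 and Eif2ak2, a kinase activated by double-stranded RNA, 0.11. The limma adjusted p of Fxr2 and Caprin1 was 0.359.

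Of 8 RNAs reported in the literature as bound or controlled by Dhx36, 2 were measured, while Plau, Pitx1, Nkx2-5 and Yy1 were below the filter. Both had a negative r with Dhx36, where 65.6% of all genes had a positive r. Control of these RNAs by Dhx36 was not tested. Gnai2, an inhibitory G protein subunit, had a startle slope of -0.35 ± 0.11 (limma adjusted p = 0.359) and r = -0.797 with Dhx36. Limk1, a kinase that acts on the actin regulator cofilin, had -0.33 ± 0.13 (limma adjusted p = 0.359) and r = -0.755. Without rats 8 and 9 the median r of the pair was -0.717. For microRNA processing, 8 of 14 genes were measured, with a median r of 0.264 and 5 positive, beside 0.228 and 65.6% over all genes. That median was -0.111, with 3 positive, without rats 8 and 9, beside 0.0504 and 52.9% over all genes. The nuclease Drosha had a startle slope of -0.15 ± 0.067, Tnrc6b -0.46 ± 0.27, Tnrc6c 0.13 and Prkra 0.065, and 0 of 8 had an unadjusted limma p under 0.05. Of 14 listed names for RNA and CpG DNA sensing, 3 genes were measured. They were Nfkb1, Irf3 and Mavs, with startle slopes of -0.11, -0.12 and 0.017 and 0 called at an unadjusted limma p under 0.05. Of all genes, 7.79% were called for startle with a positive and 4.64% with a negative slope.

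Over the 8 lists, 91 genes were measured. At an unadjusted limma p under 0.05 for startle, 5 had a positive slope (5.49%) and 5 a negative slope (5.49%), beside 7.79% and 4.64% of all genes. The median slope was 0.0096 log2 units per SD, beside 0.021 over all genes. For locomotion, plus maze and sugar feeding, 1, 2 and 1 of the 91 were called at an unadjusted p under 0.05 in limma, beside 1.91%, 3.31% and 1.35% of all genes, and 0 passed after adjustment for any of the 4 measures. The genes of the plus maze were Limk1, with a slope of -0.36, and Xrn2, an exonuclease, with 0.12, and the gene of sugar feeding was Exosc4, with -0.11.

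**Figure D5:**
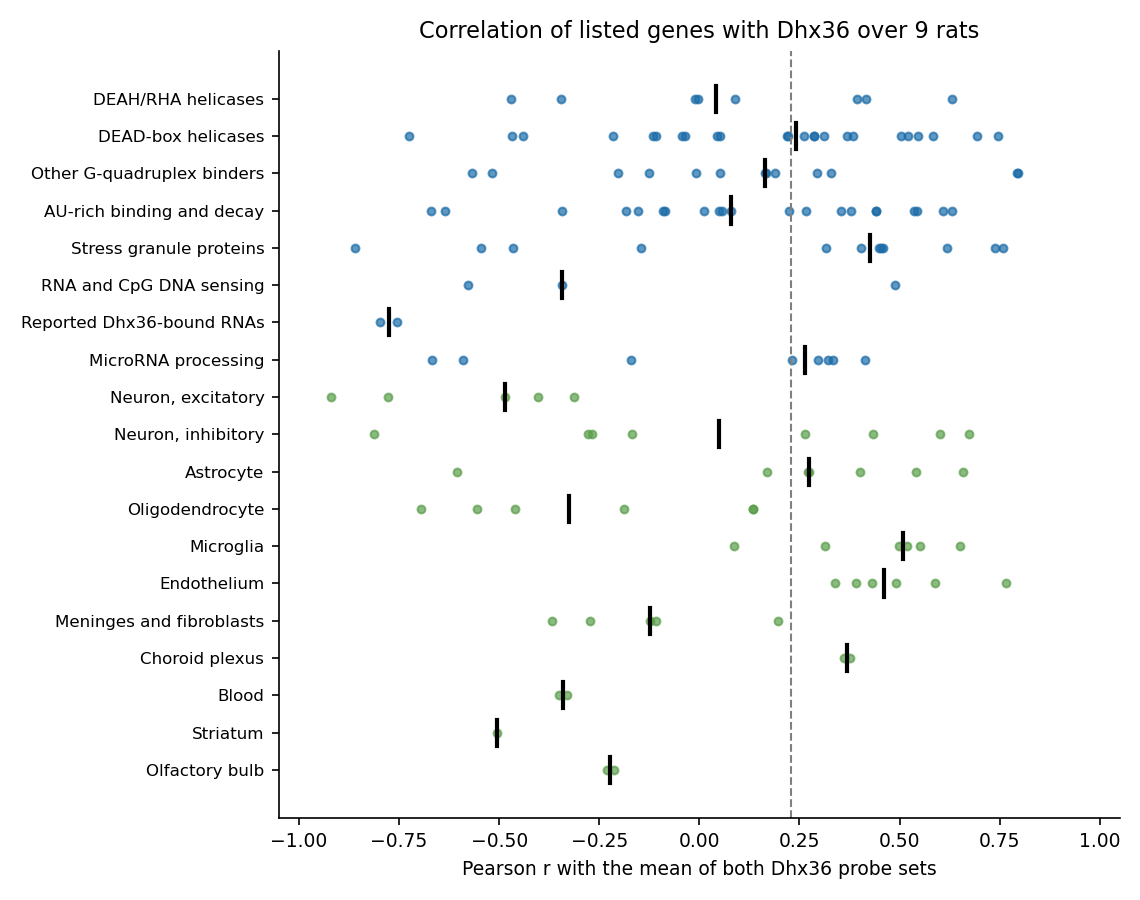
Each dot is the Pearson r over 9 rats of 1 gene with the mean of both Dhx36 probe sets, by list, with lists of pathways in blue and of cell type markers in green. Black bars are list medians and the dashed line is the median over all genes tested, 0.228. The DEAH family list, which includes Aqr of another family, spreads on both sides of 0 with a median of 0.0424.

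Cell type markers had r values with Dhx36 that differed between lists, beside a median of 0.228 and a positive share of 65.6% over all genes. All 5 genes measured of the excitatory neuron list had a negative r with Dhx36, with a median of -0.485. Their mean level ran from 10.61 to 11.36 log2 units over the rats. The vesicular glutamate transporter Slc17a7 stood at -0.778, Camk2a at -0.485 and Nrgn at -0.403. Syn1, at -0.920, and Grin1, at -0.312, are genes of neurons in general. Syn1 was also 1 of the 10 genes named above for the lowest r. All 6 microglial genes and all 6 endothelial genes measured had a positive r, with medians of 0.509 and 0.461, and their mean levels ran from 6.49 to 7.22 and from 5.75 to 6.44. The lists held 9 and 8 genes. The microglial genes Cx3cr1, Itgam and Cd68 and the endothelial gene Pecam1 were below the filter, and Tek had no probe set of its own. Astrocyte genes had a median of 0.273 with 6 of 7 positive, from 10.03 to 10.53, and inhibitory neuron genes 0.0482 with 4 of 8 positive, from 8.43 to 8.89. The astrocyte gene with a negative r was Gfap, at -0.6045. Its startle slope was -0.23, where that of Slc1a3, the astrocyte gene with the highest r, was 0.18. Oligodendrocyte genes had a median of -0.325 with 2 of 6 positive, from 8.90 to 9.57. Without rats 8 and 9 the medians were -0.769 for the excitatory neuron list, 0.594 for microglia, 0.680 for endothelium and 0.628 for astrocytes, beside 0.0504 over all genes. For inhibitory neurons the median was then -0.456 with 2 of 8 positive, and for oligodendrocytes -0.0209 with 3 of 6 positive. No list of these cell types kept its median over 9 rats, and that of astrocytes went from 0.273 to 0.628. The part of these markers in the relation of Dhx36 with startle was not tested.

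Of tissues next to the cortex, meningeal and fibroblast genes had a median r of -0.124 over 5 of 6 genes, with a mean level from 4.25 to 6.06. Choroid plexus genes had 0.369 over 2 of 5, with Ttr below the filter, and blood genes -0.340 over 2 of 5. The striatal gene measured, Ppp1r1b, had -0.506. The 2 olfactory bulb genes measured, Calb2 and Cdhr1, both near the lowest mean kept, had a median of -0.222. In the 7 rats other than 8 and 9 the values were -0.0202 for meninges and fibroblasts, 0.272 for choroid plexus, 0.616 for blood, which turned, -0.0622 for Ppp1r1b and -0.390 for the olfactory bulb.

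Of the 5 genes on either side of Dhx36 in the RefSeq gene order of GRCr8, Gpr149, a receptor with no known ligand, was the 1 gene that the array measured and that passed the filter. Its level ran from 3.12 to 4.22, near the lowest mean kept, 3.22. Its startle slope was 0.18 ± 0.098 log2 units per SD (SE, n = 9, limma adjusted p = 0.428), and its r with Dhx36 was 0.499 over 9 rats and 0.481 without rats 8 and 9.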

How the data were processed

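Total RNA of 9 rats was measured on 1 array per rat. Per the submitters' processing notes, the authors used R 2.6.2 and GCRMA, a method that subtracts sequence-dependent background, equalises arrays and condenses each probe set to 1 number. The result, as deposited, is on a log2 scale, and the sources used here do not state its settings. Replicates are separate rats, and with 1 array each their spread also holds technical differences.

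Of 15923 probe sets, 57 controls and the lowest 40% by mean were dropped; 9520 were kept, with a lowest mean of 3.22. The platform annotation named genes, and 7862 kept probe sets had 1 symbol, covering 6793 genes. Each gene was read from its probe set with the highest mean. Slopes per SD of each measure came from lmFit and eBayes of limma 3.58.1 (R 4.3.3), two-sided, with Benjamini-Hochberg adjustment over 9520 probe sets. Exact permutation tests, two-sided, ran over all pairings of the rats in Python 3.11.15 with numpy 2.4.6. The fit was also run on the real values with the rats in shuffled order and known slopes added to some probe sets. The outcome of that run is not given here. The number of arrays limits the precision.

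Named genes are both Dhx36 probe sets, the 10 highest and 10 lowest by r with Dhx36, neighbours within 5 genes, and up to 4 per list by limma p against startle. The ranking left out symbols that start with AABR, LOC, MGC or RGD. Marker genes, other probe sets of named genes and list genes called for other measures were named after their values were seen. The gene, the lists and the alternatives were chosen with earlier results of these data known. Alternatives were no filter, a repeated quantile normalization, robust moderation with an intensity trend, ranks, covariates, array weights, a term for rats 8 and 9, and leaving out these rats, the 2 farthest rats or each rat.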

Additional observations from a re-analysis of the deposited data

Results flagged for a closer look

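Among 52 profiles checked over the 9 rats, 6 held a rat far from the others, where the gap to the nearest rat was large against the whole range. Chance puts about 1 in 20 such groups past the limit used. Neither Dhx36 probe set was among these. Evi5, one of the genes most like Dhx36, was lowest in rat 8 at 7.58, against 7.71 to 7.79 in the other rats (ratio 0.598). Elavl4 was also lowest in rat 8, at 7.31 against 8.28 to 8.93 (ratio 0.599). Rat 3 was lowest for Dhx38, at 4.26 against 4.38 to 4.47 (ratio 0.578), and for Tial1, at 7.08 against 7.59 to 8.06 (ratio 0.520). Ddx39b was lowest in rat 1, at 9.59 against 9.88 to 10.12 (ratio 0.541), and Eif2ak2 in rat 9, at 3.63 against 4.04 to 4.38 (ratio 0.547).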

How the results depend on the processing

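Under the 9 alternatives besides leaving out single rats, the startle slopes of Dhx36 stayed positive, and leaving out 1 rat gave 0.52 to 0.67 for 1385871_at and 0.25 to 0.31 for 1385872_at. For locomotion, plus maze and sugar feeding no alternative brought either probe set past the threshold, with limma adjusted p of at least 0.378, and several turned a slope. For locomotion the slopes were 0.026 and 0.014 with a term for rats 8 and 9 and 0.089 and 0.044 without these rats. Without the 2 farthest rats, 1385871_at had -0.043 for plus maze and 0.22 for sugar feeding, where 1385872_at had 0.13. For sugar feeding 1385871_at also had 0.075 with the other measures as covariates and 0.049 without rats 8 and 9. Leaving out 1 rat gave, for 1385871_at and 1385872_at, -0.59 to 0.070 and -0.30 to 0.037 for locomotion, 0.056 to 0.29 and 0.011 to 0.13 for plus maze, and -0.49 to 0.045 and -0.20 to -0.014 for sugar feeding. The extremes came without rat 1 or 8 for locomotion and without rat 4 or 8 for sugar feeding. The causes were not tested.

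Agreement of the probe sets was r = 0.796 without rats 8 and 9, 0.177 for residuals from startle and 0.810 to 0.946 without 1 rat. Of the 20 genes most like Dhx36, 9 remained with 1385871_at alone, 8 with 1385872_at alone, 6 by Spearman rho, 4 without rats 8 and 9, 1 for residuals from startle and 10 after quantile normalization again. Leaving out 1 rat kept 4 to 15, with the fewest without rat 8. With startle removed, likeness took the opposite sign for Adgrb1, 0.0463, and Mapre3, 0.321. Of the 91 list genes, those at an unadjusted limma p under 0.05 numbered 2 with no filter and 3 without rats 8 and 9 for locomotion, 6 without these rats for plus maze, and 3 with a term for them and 4 without them for sugar feeding. The shares of all genes under these settings are not given here, so the counts cannot be read as a change particular to the lists. No paired analysis was possible because the rats form 1 group.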
